A study of Mus musculus with 8 samples.

Results

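Keratins, small proline-rich (SPRR) proteins and desmosome genes of the gravid mouse uterus are described here. Members were all probe sets whose platform gene symbol begins with Krt and a digit, Sprr, Dsg or Dsc and a digit, or Pkp, or is Dsp, Jup, Perp, Ivl, Lor, Trp63 or Sfn. These were 57 of the 28000 probe sets in the table, and 36 of its 13120 single-symbol genes. Each gene is represented by its brightest probe set. Ivl had no annotated probe set in the table used here, and 3 probe sets are annotated to several Sprr2a copies and are given apart from the gene counts.

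RNA of the uterus of 4 Cox-1 KO mice and 4 wild-type mice was measured on gestational day (d) 18.0 on 8 Affymetrix 430 2.0 arrays, 1 array for each mouse, to ask which uterine genes differ when delivery is delayed. The Cox-1 KO mice lack cyclooxygenase-1, the enzyme that begins prostaglandin synthesis, and were of a mixed C57BL/6 and Sv129 background according to the labels (129P2 in the study's methods), whereas the wild-type mice were C57BL/6. Strain background and the deleted gene cannot be told apart. All mice were gravid females of 6 to 16 weeks according to the labels and had their fetuses, fetal membranes and placentas removed before the uterus was frozen. Ptgs1, the gene that encodes Cox-1, had no annotated probe set in the table used here, so the genotype labels could not be checked on it. Values are MAS5 signals, a probe set's intensity on a linear scale after each array was scaled to a common mean. Because a probe set's own brightness sets its signal, signals are compared between arrays and never between genes.

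Keratins are the intermediate filament proteins of epithelia, and each cell pairs a type I with a type II keratin. Simple epithelia, such as the lining and glands of the uterus, use Krt8 and Krt7 with Krt18 and Krt19, whereas stratified epithelia such as epidermis and vagina use Krt5 with Krt14 or Krt15 in the basal layer and other pairs above it. Desmosomes fasten keratin filaments of neighbouring cells to each other through cadherins and a plaque, and SPRR proteins and loricrin are crosslinked into the cornified envelope of squamous cells, although Sprr2 genes are also known as estrogen-induced transcripts of the mouse uterine epithelium.

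Median signals lay between 731 and 757 on the 8 arrays, and pairs of arrays correlated at 0.944 to 0.982 on the log2 scale. The 4 markers of the uterus (Hoxa10, Hoxa11, Pgr and Esr1) summed to 34421 to 40299 on the Cox-1 KO arrays and 39640 to 44759 on the wild-type arrays. Transcripts of the yolk sac and fetal liver divided the arrays in another way. Apoa1, an apolipoprotein, had signals of 73950, 631, 65189 and 56615 in Cox-1 KO replicates 1 to 4, against 183, 481, 505 and 55059 in wild-type replicates 1 to 4. The summed signal of 15 such genes spanned 40872 to 466896 on the Cox-1 KO arrays and 30635 to 308632 on the wild-type arrays, with Cox-1 KO replicates 1, 3 and 4 and wild-type replicate 4 as the high arrays. Among them Rbp4 did not divide the arrays so, at 34145 to 39535 in Cox-1 KO and 26827 to 32440 in wild-type uteri. Rbp4 gave 34145 of the 40872 on Cox-1 KO replicate 2 and 26827 of the 30635 on wild-type replicate 1. Cox-1 KO replicate 4 also stood apart, with 29 probe sets at least 4-fold above all other arrays, whereas wild-type replicate 2 had 2 and each of the other 6 arrays had 0. Member values were therefore also computed without these arrays and, in limma, with the yolk sac transcripts as a covariate, under which 6 members had an unadjusted p under 0.05 and 0 an adjusted p under 0.05. Most arrays high in these transcripts were Cox-1 KO, so the covariate overlaps genotype in part. Where a difference shrinks with it, genotype and yolk sac transcripts cannot be told apart. In such bulk RNA, fewer cells of a type and less RNA per cell cannot be told apart.

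No member passed a limma adjusted p of 0.05. Tested were 26444 probe sets, those reaching a signal of 100 on 4 arrays or more, and 3 of them passed (0.0113%). All 36 member genes were tested, and their adjusted p spanned 0.422 to 0.980. By an unadjusted p under 0.05, 9 of the 36 genes (25%) differed, against 8.81% of all probe sets. Of these, 8 (22.2%) were higher in Cox-1 KO, namely Krt6a, Krt14, Krt15, Krt18, Sprr1a, Sprr2d, Sfn and Dsc2, against 3.69% of all probe sets, and Krt42 (2.78%) was lower, against 5.12%. Regardless of size, 31 of the 36 genes (86.1%) had a higher log2 mean in Cox-1 KO, against 42.5% of all probe sets. The median log2 difference, Cox-1 KO minus wild-type, was 0.25 over the members and -0.03 over all probe sets.

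**Figure D1:**
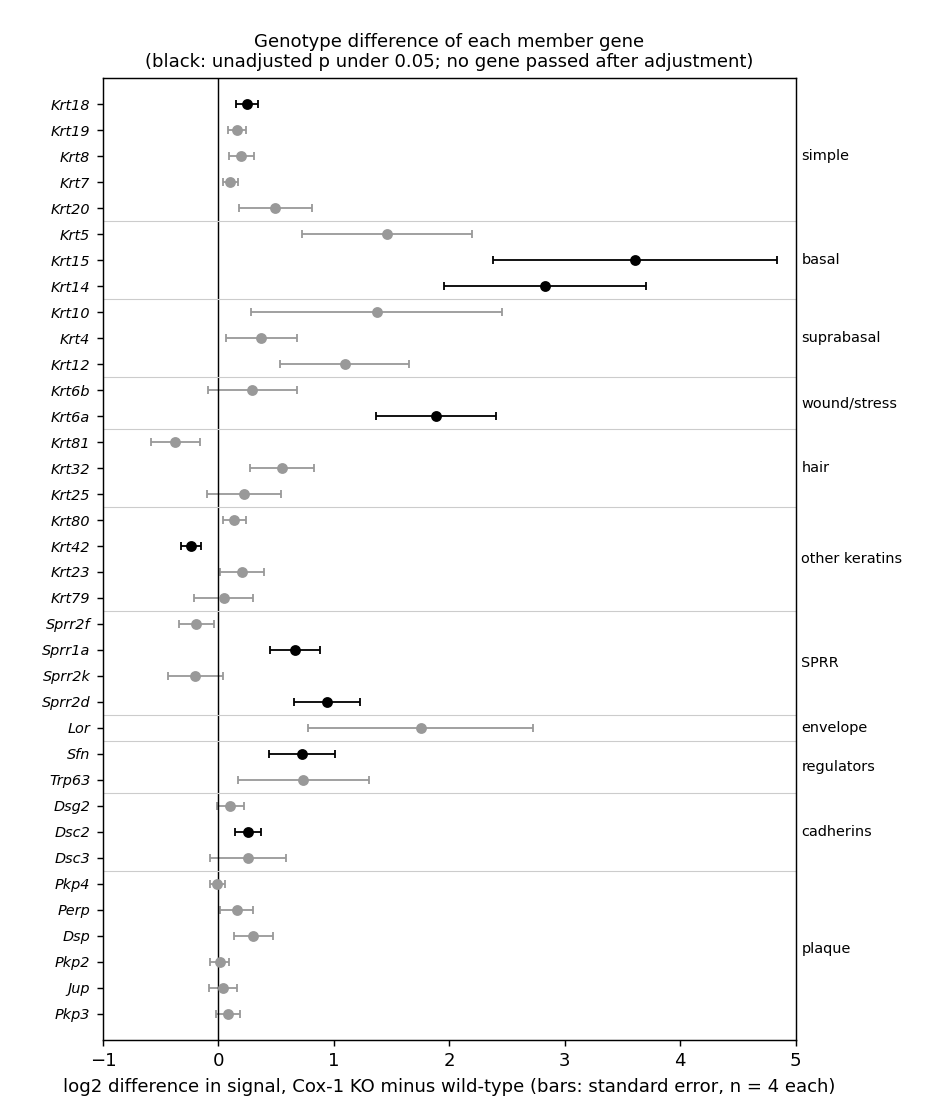
Log2 difference in signal, Cox-1 KO minus wild-type, of each of the 36 genes (rows, grouped by role), with the limma standard error as bars (n = 4 mice each). Black points had an unadjusted p under 0.05. The differences run from -0.37 for Krt81 to 3.61 for Krt15, and Krt15 and Krt14, with signals under 100 on 2 wild-type arrays taken as given, lie farthest to the right with wide bars.

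The simple epithelium keratins showed small differences. All 5 were higher in Cox-1 KO by their means, with log2 differences of 0.10 to 0.49, a median of 0.20, and adjusted p of 0.538 to 0.665. Krt18, the type I partner of Krt8, had signals of 33062, 26007, 29763 and 27028 in Cox-1 KO uteri, against 20479, 23934, 26467 and 26946 in wild-type uteri. This was a log2 difference of 0.25 ± 0.10 (SE, n = 4 each; limma adjusted p = 0.538), and the 2 highest arrays were Cox-1 KO replicates 1 and 3 while the groups overlapped on the rest. With the yolk sac covariate it was 0.12. Krt8, the type II keratin of simple epithelia, had signals of 30700, 24999, 26096 and 25501 in Cox-1 KO uteri, against 18397, 24726, 25045 and 25761 in wild-type uteri. Here wild-type replicates 3 and 4 lay within the Cox-1 KO range, replicate 2 lay just under it, and wild-type replicate 1 stood below all other arrays. Krt19 averaged 27534 ± 2189 in Cox-1 KO and 24702 ± 2363 in wild-type uteri (SD, n = 4 each). Krt7 averaged 23728 ± 1331 in Cox-1 KO and 22115 ± 1710 in wild-type uteri (SD, n = 4 each), and both genes were also lowest on wild-type replicate 1. Without that array the median of the 5 genes was 0.09 on the log2 scale, and with the yolk sac covariate it was 0.07.

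Krt20, known from the intestinal lining, varied more between arrays than the other simple keratins, relative to its own mean. It had signals of 383, 172, 222 and 356 in Cox-1 KO uteri, against 126, 165, 228 and 279 in wild-type uteri, a log2 difference of 0.49 ± 0.31 (SE, n = 4 each; limma adjusted p = 0.665). The groups overlapped over most of their range, and with the yolk sac covariate the log2 difference was 0.0073. Epithelial genes of the uterus other than keratins, a list of 18 measured genes that includes Epcam and Cdh1, had 10 genes higher and 8 lower in Cox-1 KO, with a median log2 difference of 0.01, and 0 with an unadjusted p under 0.05. Epcam, the epithelial cell adhesion molecule, had signals of 11440, 12381, 11904 and 10106 in Cox-1 KO uteri, against 10846, 12492, 10840 and 11405 in wild-type uteri.

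Mesothelium and trophoblast, other keratin-bearing cells that the tissue could hold, were measured through lists of their markers. Of 7 mesothelial genes, 6 were higher and 1 lower in Cox-1 KO, with a median log2 difference of 0.35 and summed signals of 7934 to 12349 on the Cox-1 KO arrays and 7413 to 9476 on the wild-type arrays. Msln, the mesothelial surface protein mesothelin, had signals of 3374, 1744, 2428 and 1353 in Cox-1 KO uteri, against 787, 1469, 1354 and 1943 in wild-type uteri (log2 difference 0.67 ± 0.30, SE, n = 4 each; limma adjusted p = 0.562). Of 6 trophoblast genes, 3 were higher and 3 lower in Cox-1 KO, with a median of -0.19 and summed signals of 18297 to 22931 on the Cox-1 KO arrays and 8544 to 26110 on the wild-type arrays. Like the simple keratins, the mesothelial, trophoblast and other epithelial lists were each lowest on wild-type replicate 1. Their mean log2 signals there, relative to each gene's own mean, were -0.37, -0.50 and -0.29. Their part in the keratin differences was not tested. Wild-type replicate 1 was also lowest for the lists of other intermediate filaments (-0.27), adherens junctions (-0.14) and hemidesmosome and anchoring genes (-0.58). So it was for epidermal differentiation (-0.63) and for yolk sac and fetal liver (-3.29). The uterus (0.19) and smooth muscle (-0.05) lists were not lowest there. Genes of epithelia are among the lists that were lowest there, such as Cdh1 of the adherens junctions. Whether low values there were particular to keratin-bearing cells was not tested.

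**Figure D2:**
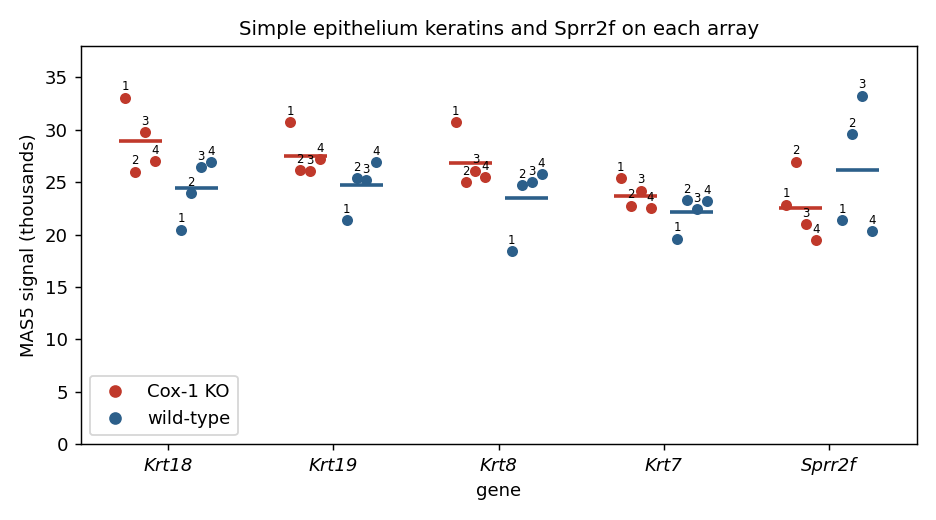
MAS5 signal (vertical axis, in units of 1000) of 4 simple epithelium keratins and of Sprr2f on each array, with Cox-1 KO mice in red, wild-type mice in blue, replicate numbers above the points and group means as lines (n = 4 each). Wild-type replicate 1 is the lowest point of each keratin (18397 for Krt8), and the groups overlap for every gene plotted.

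The stratified epithelium genes varied far more between mice. Of 15 such genes, 13 were higher and 2 lower in Cox-1 KO, with a median log2 difference of 0.94, where 42.5% of all probe sets were higher and their median was -0.03. For 6 of the 15, all higher in Cox-1 KO, the unadjusted p was under 0.05, against 3.69% of all probe sets, and the median was 0.52 without Cox-1 KO replicate 4. Averaged over the 15 genes, log2 signal relative to each gene's own mean was 0.54, 0.40, -0.06 and 1.44 on the 4 Cox-1 KO arrays, against -1.22, -0.96, 0.38 and -0.51 on the 4 wild-type arrays. Cox-1 KO replicate 3 and wild-type replicate 3 thus crossed, with wild-type replicate 3 lying above the other 3 wild-type arrays and close to Cox-1 KO replicate 2.

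**Figure D3:**
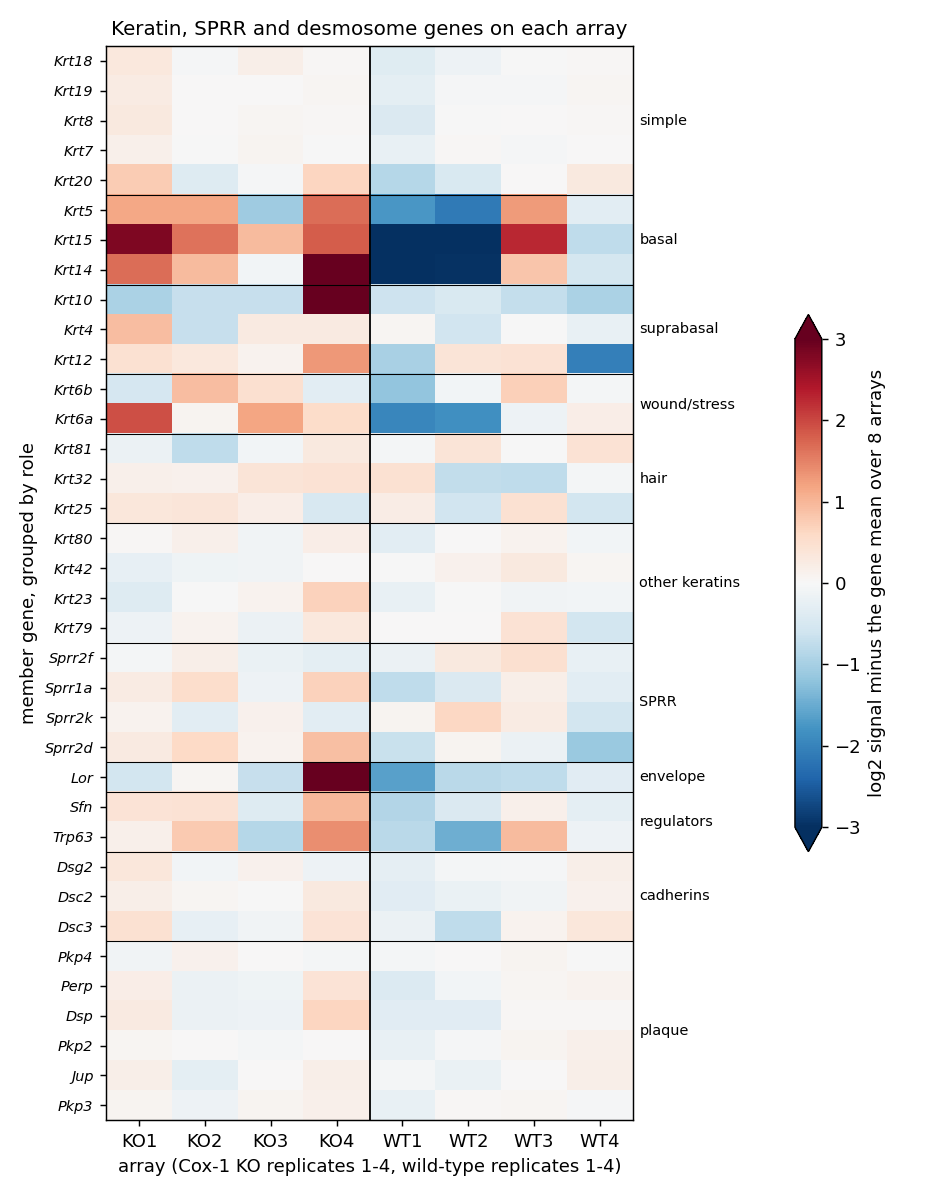
Log2 signal of each of the 36 genes (rows, grouped by role) minus its mean over the 8 arrays, with the 4 Cox-1 KO arrays on the left and the 4 wild-type arrays on the right. Colours stop at 3 either way. The basal keratins are dark blue on wild-type replicates 1 and 2 and red on wild-type replicate 3, Krt10 and Lor are dark red on Cox-1 KO replicate 4 alone, and the simple keratins and desmosome genes are pale throughout.

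Of the 36 genes, the basal keratins Krt15 and Krt14 had the largest log2 differences with low signals taken as given, and Krt6a exceeded both with signals under 100 set to 100. Krt14, the type I keratin of basal cells, had signals of 599, 360, 175 and 1620 in Cox-1 KO uteri, against 23, 24, 333 and 130 in wild-type uteri. The log2 difference was 2.83 ± 0.88 (SE, n = 4 each; limma adjusted p = 0.489), and 1.79 with signals under 100 set to 100, since MAS5 signals that low have no dependable order. Krt15, another type I keratin of the basal layer, had signals of 1203, 535, 330 and 607 in Cox-1 KO uteri, against 10, 7, 822 and 102 in wild-type uteri. Its log2 difference was 3.61 ± 1.23 (SE, n = 4 each; limma adjusted p = 0.526), and 1.82 with the same minimum. Krt5, their type II partner, had signals of 1523, 1522, 326 and 2172 in Cox-1 KO uteri, against 202, 157, 1663 and 544 in wild-type uteri, a log2 difference of 1.46 ± 0.73 (SE, n = 4 each; limma adjusted p = 0.592). All 3 basal keratins were thus low on wild-type replicates 1 and 2 and high on wild-type replicate 3, and on each the groups overlapped.

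Regulators of stratified epithelium followed a like order of arrays. Trp63, the transcription factor of basal progenitor cells, had signals of 132, 203, 65 and 312 in Cox-1 KO uteri, against 68, 43, 229 and 106 in wild-type uteri (log2 difference 0.73 ± 0.57, SE, n = 4 each; limma adjusted p = 0.725). A second Trp63 probe set, which fell short of the signal minimum on most arrays, had a log2 difference of -0.16, so the direction for Trp63 rests on 1 probe set. Sfn, the 14-3-3 protein sigma of squamous cells, had signals of 449, 456, 259 and 663 in Cox-1 KO uteri, against 182, 249, 377 and 275 in wild-type uteri. Its log2 difference was 0.73 ± 0.29 (SE, n = 4 each; limma adjusted p = 0.538), and wild-type replicate 3 was again the highest of its group. After the values were seen, the genes whose 4 brightest arrays were Cox-1 KO replicates 1, 2 and 4 and wild-type replicate 3 were counted. They were 7 of the 36 members (19.4%), namely Krt5, Krt14, Krt15, Krt80, Trp63, Sfn and Sprr1a, against 1.33% of all probe sets. The set of arrays was that of the basal keratins, Trp63 and Sfn, which are themselves counted. The higher share thus follows in part from that choice and is not a test.

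Genes that anchor basal cells were listed for comparison. Of 9 measured hemidesmosome and anchoring genes, 8 were higher and 1 lower in Cox-1 KO, with a median log2 difference of 0.08 and 0 with an unadjusted p under 0.05. Col17a1, a collagen of the hemidesmosome, had signals of 104, 67, 109 and 153 in Cox-1 KO uteri, against 4, 5, 236 and 55 in wild-type uteri. It was lowest on wild-type replicates 1 and 2 and highest on wild-type replicate 3. Col17a1 reached a signal of 100 on only 4 arrays, however, and signals below that have no dependable order. Itgb4, the integrin of the same junction, had signals of 2128, 1391, 1757 and 1758 in Cox-1 KO uteri, against 1512, 1591, 1803 and 1860 in wild-type uteri, with no such gap.

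Krt6a, a type II keratin induced in wounded and stressed epidermis, had the smallest p of the members. Its signals were 1617, 448, 966 and 618 in Cox-1 KO uteri, against 108, 118, 377 and 483 in wild-type uteri. Krt6a thus had a log2 difference of 1.89 ± 0.52 (SE, n = 4 each; limma adjusted p = 0.422) and a ratio of mean signals of 3.36, and the groups overlapped only in that wild-type replicate 4 exceeded Cox-1 KO replicate 2. With the yolk sac covariate the log2 difference was 1.03. Its other probe sets gave log2 differences of 0.67 and 1.84. Krt6b, a close copy with which Krt6a probes may share signal, had signals of 759, 2048, 1506 and 873 in Cox-1 KO uteri, against 477, 1024, 1786 and 1038 in wild-type uteri. Its log2 difference was 0.29 ± 0.39 (SE, n = 4 each; limma adjusted p = 0.846), and without wild-type replicate 1 it was -0.05.

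Krt10 and Lor were set by Cox-1 KO replicate 4. Krt10, the type I keratin of differentiating epidermal layers, had signals of 578, 693, 688 and 37892 in Cox-1 KO uteri, against 727, 808, 683 and 583 in wild-type uteri. On that array it was 46.9-fold above the highest other array, and the log2 difference of 1.37 ± 1.09 (SE, n = 4 each; limma adjusted p = 0.734) was -0.10 without it. Lor, which encodes loricrin, had signals of 275, 417, 249 and 10429 in Cox-1 KO uteri, against 131, 230, 239 and 320 in wild-type uteri. Its signal there was 25.0-fold above the highest other array, and its log2 difference of 1.75 ± 0.97 (SE, n = 4 each; limma adjusted p = 0.623) was 0.48 without it.

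Other epidermal genes were high on the same array. Of 22 measured genes of epidermal differentiation outside the keratin and SPRR families, 6 were at least 4-fold above all other arrays on Cox-1 KO replicate 4 (Calm4, Krtdap, Crct1, Lgals7, Lce1b and Csta1). Calm4, a calcium-binding protein of epidermis, had signals of 164, 294, 126 and 10330 in Cox-1 KO uteri, against 53, 69, 32 and 116 in wild-type uteri. Krtdap, a keratinocyte differentiation protein, had signals of 377, 496, 427 and 7205 in Cox-1 KO uteri, against 517, 432, 497 and 468 in wild-type uteri. The 19 genes of that list that could be tested summed to 34274 to 76070 on the Cox-1 KO arrays and 26801 to 38424 on the wild-type arrays. Of these 19 genes, 16 were higher in Cox-1 KO, 3 were lower, and 6 were higher with an unadjusted p under 0.05, where 42.5% of all probe sets were higher and 3.69% were higher with such a p. The probe sets that stood apart on this array, read after their values were seen, also included genes of striated muscle (Mylpf at 3246, Ckm at 1348 and Actc1 at 7180) and of cartilage (Col9a1 at 1120 and Matn1 at 283). Their part in the Krt10 and Lor values was not tested.

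By group mean, basal and suprabasal keratins were both highest on Cox-1 KO replicate 4, where Krt5, Krt14, Krt10 and Krt12 had their highest signals. Krt15 and Krt4 peaked instead on Cox-1 KO replicate 1, at 1203 and 435, against 607 and 274 on replicate 4. On Cox-1 KO replicates 1 and 2, where basal keratins were also high, Krt10 lay at 578 and 693, within or below the wild-type range. Krt4, a suprabasal keratin of internal stratified epithelia, had signals of 435, 141, 274 and 274 in Cox-1 KO uteri, against 239, 154, 229 and 195 in wild-type uteri. Its log2 difference was 0.37 ± 0.31 (SE, n = 4 each; limma adjusted p = 0.745). Krt12, the keratin of corneal epithelium, lay at 95 to 216 in Cox-1 KO uteri, against 21 to 119 in wild-type uteri. Its log2 difference of 1.09 ± 0.56 (SE, n = 4 each; limma adjusted p = 0.597) was 0.26 with signals under 100 set to 100.

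**Figure D4:**
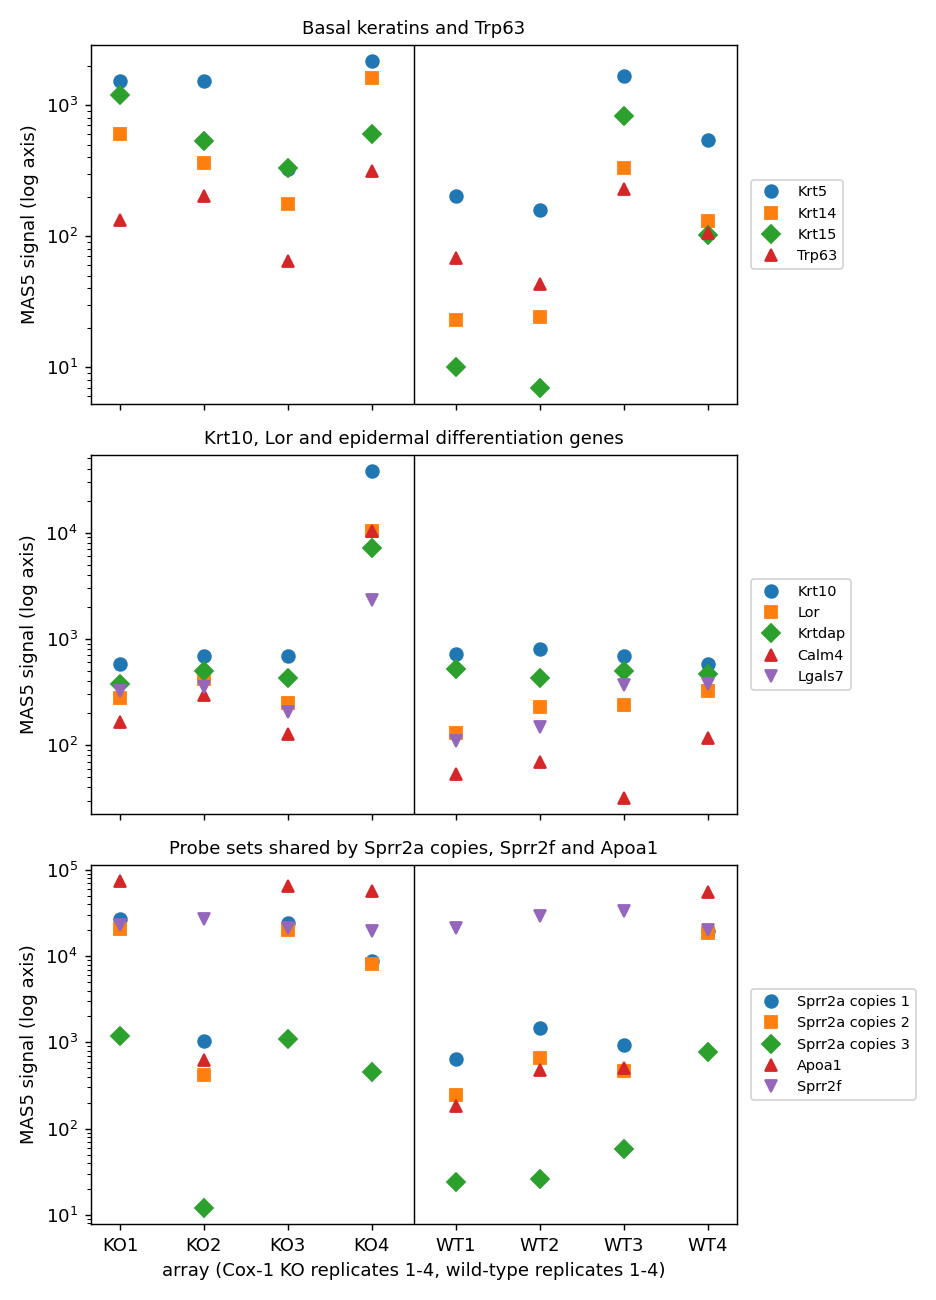
MAS5 signal (vertical log axes) on the 4 Cox-1 KO arrays, left of the line, and the 4 wild-type arrays, for the basal keratins and Trp63 (top), Krt10, Lor and other epidermal genes (middle), and the probe sets shared by Sprr2a copies with Sprr2f and Apoa1 (bottom). Krt15 drops to 10 and 7 on wild-type replicates 1 and 2, Krt10 reaches 37892 on Cox-1 KO replicate 4 alone, and the Sprr2a probe sets and Apoa1 are high on Cox-1 KO replicates 1, 3 and 4 and wild-type replicate 4.

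The SPRR genes differed among themselves. By their means, 2 of the 4 genes were higher and 2 lower in Cox-1 KO. Promoter windows of 3 of them and of Lor are shown because these genes lie near each other on chromosome 3 and yet had unlike array patterns. Each is the 250 bases before the RefSeq gene start (GRCm38.p6), and capitals mark 2 motifs searched on both strands, TGANTCA, the AP-1 motif, and TATAAA, the TATA box.
Sprr1a, chr3:92485882-92486131, minus strand: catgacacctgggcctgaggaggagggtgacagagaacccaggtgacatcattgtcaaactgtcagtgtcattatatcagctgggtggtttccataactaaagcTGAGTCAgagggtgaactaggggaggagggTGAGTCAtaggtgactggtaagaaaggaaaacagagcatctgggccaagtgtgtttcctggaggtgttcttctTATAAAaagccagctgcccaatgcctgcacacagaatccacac
Sprr2d, chr3:92338890-92339139, plus strand: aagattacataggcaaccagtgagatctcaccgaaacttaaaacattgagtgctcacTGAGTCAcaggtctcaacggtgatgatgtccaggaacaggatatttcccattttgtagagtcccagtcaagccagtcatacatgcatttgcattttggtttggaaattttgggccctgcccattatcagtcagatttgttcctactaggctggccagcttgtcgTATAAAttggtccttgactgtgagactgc
Sprr2f, chr3:92364937-92365186, plus strand: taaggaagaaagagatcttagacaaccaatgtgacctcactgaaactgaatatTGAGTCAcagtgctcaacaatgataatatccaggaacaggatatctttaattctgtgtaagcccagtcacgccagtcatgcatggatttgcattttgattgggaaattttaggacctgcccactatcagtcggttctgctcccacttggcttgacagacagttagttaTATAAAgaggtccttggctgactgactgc
Lor, chr3:92083143-92083392, minus strand: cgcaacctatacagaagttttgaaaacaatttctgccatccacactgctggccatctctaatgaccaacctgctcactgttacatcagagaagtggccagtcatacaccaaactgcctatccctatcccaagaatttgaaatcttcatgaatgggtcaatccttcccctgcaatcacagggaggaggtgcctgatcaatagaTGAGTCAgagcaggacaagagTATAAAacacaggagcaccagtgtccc

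All 4 windows held both motifs, with 2 AP-1 matches for Sprr1a and 1 for each of the others. The Sprr2d and Sprr2f windows were identical at 187 of 263 aligned columns (71.1%). TGANTCA was found in 6.75% of all 32851 RefSeq windows of this length and in 5 of 10 windows of stratified epithelium genes (50%), those of Lor, Sprr1a, Sprr2d, Sprr2f and Sprr2k. It was found in 0 of 4 windows of simple keratins and 0 of 4 windows of desmosome genes (3 genes), too few windows to set against 6.75%. Windows of stratified epithelium genes with it were thus all of SPRR genes and Lor, and the Krt5 window, not shown, held neither motif. TATAAA was found in 12.4% of all windows, in 7 of 10 windows of stratified epithelium genes (70.0%) and in 1 of 4 windows of simple keratins, that of Krt20. The 10 windows of stratified epithelium genes are few for either motif, and SPRR windows near each other on chromosome 3 are not separate cases.

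Of the 36 genes, only Sprr2d (1 gene, 2.78%) had groups that did not overlap on its brightest probe set, against 4.41% of all probe sets. Its signals were 241, 304, 215 and 374 in Cox-1 KO uteri, against 125, 212, 176 and 93 in wild-type uteri. The log2 difference was 0.94 ± 0.28 (SE, n = 4 each; limma adjusted p = 0.482), the ratio of mean signals was 1.87, and the gap between the lowest Cox-1 KO array and the highest wild-type array was small, at 215 against 212. Sprr1a, an envelope protein precursor of squamous cells, had signals of 965, 1171, 722 and 1311 in Cox-1 KO uteri, against 474, 600, 914 and 651 in wild-type uteri. Its log2 difference was 0.67 ± 0.22 (SE, n = 4 each; limma adjusted p = 0.513), and only wild-type replicate 3 reached into the Cox-1 KO range. By the thresholds of the study's methods, an unadjusted p of 0.05 or less with a mean ratio of at least 1.5, 2 members passed (5.56%), Krt6a and Sprr2d, against 0.862% of all probe sets. Both were higher in Cox-1 KO, as were 0.416% of all probe sets, whereas 0.446% of all probe sets and 0 members passed as lower. The count of members was 0 without wild-type replicate 1 and 5 without wild-type replicate 3.

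Sprr2f, an Sprr2 gene known from the uterine epithelium, had no such order. Its signals were 22852, 26972, 20997 and 19511 in Cox-1 KO uteri, against 21359, 29570, 33270 and 20368 in wild-type uteri. Sprr2f had a log2 difference of -0.19 ± 0.15 (SE, n = 4 each; limma adjusted p = 0.739), and the 2 highest arrays were wild-type replicates 3 and 2. Sprr2k had signals of 371, 276, 374 and 273 in Cox-1 KO uteri, against 364, 531, 405 and 232 in wild-type uteri (log2 difference -0.20 ± 0.24, SE, n = 4 each; limma adjusted p = 0.828).

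The 3 probe sets shared by Sprr2a copies divided the arrays as the yolk sac transcripts did, and not by genotype. The first had signals of 27066, 1036, 24015 and 8715 in Cox-1 KO uteri, against 645, 1467, 935 and 19455 in wild-type uteri. The second had signals of 20687, 415, 19998 and 8158 in Cox-1 KO uteri, against 245, 667, 466 and 18526 in wild-type uteri. The 4 high arrays were those high in Apoa1, with wild-type replicate 4 among them, and Cox-1 KO replicate 2 was low, as were wild-type replicates 1 to 3. The same arrays were the 4 brightest for 4 of the 36 genes (Jup, Krt6a, Krt8 and Krt18, 11.1%, against 4.14% of all probe sets), but by narrow margins. The lowest of the 4 lay at 1253, 483, 25501 and 26946 for these genes. The highest other array lay at 1236, 448, 25045 and 26467. The log2 differences of the 3 probe sets were 2.10, 2.49 and 2.00, with limma adjusted p of 0.616 to 0.709. Sprr2f, at 22852, 20997, 19511 and 20368 on those 4 arrays, was not raised there, and the Sprr2 copies are alike enough that probes may bind transcripts of more than 1 of them.

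The desmosome genes differed least. Of 9 genes, 8 were higher and 1 was lower in Cox-1 KO by their means, with log2 differences of -0.01 to 0.30 and a median of 0.10, which was 0.03 without wild-type replicate 1 and -0.02 with the yolk sac covariate. Among the cadherins, Dsc2, a desmocollin of simple and stratified epithelia, had signals of 1311, 1224, 1163 and 1421 in Cox-1 KO uteri, against 923, 1024, 1080 and 1283 in wild-type uteri. The log2 difference was 0.25 ± 0.11 (SE, n = 4 each; limma adjusted p = 0.561), and with the yolk sac covariate it was 0.13. Only wild-type replicate 4 lay within the Cox-1 KO range. A second Dsc2 probe set had a log2 difference of 0.20 ± 0.18 (SE, n = 4 each; limma adjusted p = 0.766). On that probe set wild-type replicate 3 was the highest array, at 1137. With its probe sets averaged, Dsc2 did not keep an unadjusted p under 0.05. Dsg2, the desmoglein of simple epithelia and heart, had signals of 4402, 3286, 3849 and 3130 in Cox-1 KO uteri, against 2888, 3345, 3398 and 3970 in wild-type uteri. Dsc3, a desmocollin of basal layers, had signals of 141, 86, 95 and 135 in Cox-1 KO uteri, against 90, 60, 110 and 129 in wild-type uteri. For Dsg2 and Dsc3 the groups overlapped widely, with log2 differences of 0.10 ± 0.12 and 0.26 ± 0.33 (SE, n = 4 each), and for Dsc3 0.11 with signals under 100 set to 100.

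Among plaque genes, Dsp, which encodes desmoplakin, the link to keratin filaments, had signals of 5672, 4162, 4236 and 7306 in Cox-1 KO uteri, against 3725, 3704, 4775 and 4792 in wild-type uteri. For Dsp the log2 difference was 0.30 ± 0.17 (SE, n = 4 each; limma adjusted p = 0.625), and the high Cox-1 KO arrays were replicates 4 and 1. Perp, a desmosomal membrane protein and Trp63 target, had signals of 6303, 4828, 4987 and 7219 in Cox-1 KO uteri, against 4120, 5165, 5674 and 5853 in wild-type uteri. It was likewise highest on Cox-1 KO replicates 4 and 1, with a log2 difference of 0.16 ± 0.14 (SE, n = 4 each; limma adjusted p = 0.765). Jup, which encodes plakoglobin, averaged 1264 ± 183 in Cox-1 KO and 1221 ± 128 in wild-type uteri (SD, n = 4 each). The plakophilins Pkp2, Pkp3 and Pkp4 had log2 differences of 0.01 ± 0.08, 0.08 ± 0.10 and -0.01 ± 0.06 (SE, n = 4 each), with adjusted p of 0.834 to 0.980. Another Pkp2 probe set had signals of 221, 224, 222 and 216 in Cox-1 KO uteri, against 295, 238, 308 and 283 in wild-type uteri, so that its groups did not overlap, with a log2 difference of -0.34 ± 0.15 (SE, n = 4 each; limma adjusted p = 0.561). The direction for Pkp2 thus differs between its probe sets. The directions of Jup, Pkp2 and Pkp4 turned when single arrays were left out. Of 11 adherens junction genes, 6 were higher and 5 lower in Cox-1 KO, with a median log2 difference of 0.01.

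The remaining keratins included the only member lower in Cox-1 KO with an unadjusted p under 0.05. Krt42, a type I keratin known from the mouse nail, had signals of 1552, 1674, 1721 and 1856 in Cox-1 KO uteri, against 1838, 2020, 2258 and 1924 in wild-type uteri. For Krt42 the log2 difference was -0.24 ± 0.09 (SE, n = 4 each; limma adjusted p = 0.530), and the groups overlapped only in that Cox-1 KO replicate 4 exceeded wild-type replicate 1. A second Krt42 probe set had overlapping groups and a log2 difference of -0.26 ± 0.26 (SE, n = 4 each; limma adjusted p = 0.790). Krt42 did not keep an unadjusted p under 0.05 with its probe sets averaged or with the yolk sac covariate. Nor did it without Cox-1 KO replicate 1 or without wild-type replicate 3. The hair keratins Krt81 and Krt32 and the root sheath keratin Krt25 had log2 differences of -0.37, 0.55 and 0.22, with limma adjusted p of 0.595 to 0.864. Krt80, Krt23 and Krt79 had log2 differences of 0.14, 0.20 and 0.05, with adjusted p of 0.708 to 0.971. Of 8 intermediate filament genes of other families, 2 were higher and 6 lower in Cox-1 KO. Among them Synm, the muscle protein synemin, had signals of 2809, 3895, 3195 and 3051 in Cox-1 KO uteri, against 3407, 4322, 4882 and 4421 in wild-type uteri (log2 difference -0.39 ± 0.12, SE, n = 4 each; limma adjusted p = 0.489).

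Single mice marked the ends of many members' ranges. Wild-type replicate 1 was the lowest array for 17 of the 36 genes (47.2%), against 13.4% of all probe sets, among them Krt7, Krt8, Krt18 and Krt19. Cox-1 KO replicate 4 was the highest array for 15 genes (41.7%), against 10.5% of all probe sets, and Cox-1 KO replicate 1 for 11 genes (30.6%), against 14%. These arrays were picked after the values were seen. Without Cox-1 KO replicate 1 the count of members with an unadjusted p under 0.05 was 5, namely Krt6a, Krt14, Krt15, Sprr1a and Sprr2d. These 5 genes kept an unadjusted p under 0.05 when each of the 8 arrays was left out in turn. Krt15 did not keep it with a robust limma fit (unadjusted p = 0.067) or with the yolk sac covariate. Under that covariate the 6 genes were Krt6a, Krt12, Krt14, Krt81, Sprr1a and Sprr2d. Without the 4 arrays high in Apoa1, which leaves Cox-1 KO replicate 2 against wild-type replicates 1 to 3, the count was 3, namely Krt81, Lor and Sprr1a. The lone Cox-1 KO array is assumed there to vary like the wild-type arrays.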

How the data were processed

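Uterine RNA of 4 Cox-1 KO and 4 wild-type mice (gestational d18.0) was hybridized to Affymetrix 430 2.0 arrays. The authors computed signal intensity with MAS5 and scaled each array to a mean of 1000, and the deposited intensity values are linear, without detection calls. Of the 28000 probe sets, 60 array controls were left out. Probe sets were named from the platform annotation, 23579 with 1 symbol, 653 with several and 3768 with none here.

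Signals under 1 were set to 1 (1 value), log2 was taken with no constant, and the 26444 probe sets that reached a signal of 100 on 4 arrays or more were kept. Cox-1 KO was compared with wild-type by limma 3.58.1 in R 4.3.3, with empirical Bayes variances whose prior followed mean signal, and a Benjamini-Hochberg adjusted p under 0.05 over all kept probe sets counted as passed. The methods' t-test, Welch's on log2 signal, was run beside it. The procedure was tested on simulated data. Alternatives were a constant of 32, a minimum signal of 100, no filter and a filter of 200, other scaling of the arrays (quantiles or medians), other variance models (a constant prior, robust, weighted arrays), a replicate block, other probe sets, a yolk sac covariate, and leaving out arrays. The number of arrays limits the precision.

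The members, role groups and lists were chosen with earlier results of these data known. Named were members with an unadjusted p under 0.05 or with groups that did not overlap, the brightest 4 of each role, those with the widest range, all desmosome genes and regulators, and up to 4 genes of each comparison list by smallest p or highest signal. RefSeq promoter windows (GRCm38.p6) matched 22 of the 36 genes and were searched in Python 3.11.15. Replicate numbers came from the labels, and the deviations of same-numbered arrays correlated at -0.25, 0.22, -0.18 and 0.17 for replicates 1 to 4, so the numbers were not taken to pair the arrays.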

Additional observations from a re-analysis of the deposited data

Results flagged for a closer look

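In each group of 4 arrays, a value far from the other 3 was looked for on the log2 scale, for the 36 genes in both groups. Of 72 groups 3 held such a value, and chance alone gives about 1 in 20. Krt10 was 37892 on Cox-1 KO replicate 4, against 578 to 693 on the other Cox-1 KO arrays. Lor was 10429 on Cox-1 KO replicate 4, against 249 to 417 on the other Cox-1 KO arrays. Krt8 was 18397 on wild-type replicate 1, where wild-type replicates 2 to 4 had 24726 to 25761.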

How the results depend on the processing

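No member passed an adjusted p of 0.05 under any alternative run. The median log2 differences of simple keratins, stratified epithelium genes and desmosome genes moved by less than 1 SD of their array means. That SD was 0.21, 0.67 and 0.16 for the 3 groups, against medians of 0.20, 0.94 and 0.10. For simple keratins and desmosome genes a median could thus reach 0 within that limit. The desmosome median did turn direction with the yolk sac covariate. The number of all probe sets past an adjusted p of 0.05 was 3, and it was 10 with a constant of 32, 11 with median centring, 12 with 100 as the lowest signal, 2 (0 of them members) by the methods' test after Benjamini-Hochberg adjustment, 6 with a robust fit, 18 with array weights and 6 without the 4 arrays high in Apoa1. When each array was left out it spanned 2 to 25, with 9 when Cox-1 KO replicate 2 or Cox-1 KO replicate 4 was left out and 25 when wild-type replicate 1 was. Members with an unadjusted p under 0.05 numbered 9, spanned 5 (without Cox-1 KO replicate 1) to 11 (without Cox-1 KO replicate 3 or wild-type replicate 4), and were 3 without the 4 arrays high in Apoa1. Members past the methods' thresholds numbered 2, and were 1 with a gene's probe sets averaged and 0 (without wild-type replicate 1) to 5 (without wild-type replicate 3) when each array was left out. The deviations of same-numbered arrays correlated positively for replicates 2 and 4 and negatively for replicates 1 and 3, and with the replicate number as a block (replicate block) 11 members had an unadjusted p under 0.05 and 0 an adjusted p under 0.05. Over all alternatives apart from leaving out single arrays, 20 gene values turned direction and 461 did not. These were Pkp4 at 0.0029 with median centring, Pkp2 at -0.018 with array weights and -0.10 with probe sets averaged, and Dsg2 at -0.059, Pkp2 at -0.34 and Trp63 at -0.16 on another probe set. With the yolk sac transcripts as a covariate they were Dsc3 at -0.087, Dsg2 at -0.061, Jup at -0.16, Perp at -0.015, Pkp2 at -0.056, Pkp4 at 0.053 and Sprr2f at 0.030. Without the 4 arrays high in Apoa1 they were Jup at -0.21, Krt10 at -0.090, Krt4 at -0.53, Krt79 at -0.045, Perp at -0.034, Pkp3 at -0.099 and Pkp4 at 0.12. When each array was left out, 12 values turned and 276 did not, with ranges of -0.013 to 0.15 for Jup, -0.065 to 0.062 for Pkp2, -0.055 to 0.024 for Pkp4, -0.096 to 1.92 for Krt10, -0.13 to 0.20 for Krt79 and -0.050 to 0.58 for Krt6b. The cause of these shifts was not tested. With 4 arrays a group and no detection calls, signals under 100 have no dependable order, which bears on Krt12, Krt14, Krt15, Krt25, Trp63, Dsc3 and, on 1 array, Sprr2d.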
